A study of Homo sapiens with 10 samples.

Results

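The long intergenic non-coding RNAs described here are the genes whose symbol is LINC followed by a number, a placeholder that the human gene nomenclature gives to non-coding genes with no known function. The count table listed 596 such genes among 28380, and the 96 with a raw count of 100 or more summed over the 10 libraries are the members. They were chosen by that total over both treatments, and not by the difference between treatments, although a gene high in a single treatment can reach the total through it. Human RPE-1 cells, a line of retinal pigment epithelial cells immortalized with telomerase, were treated for 4 h with 25 µM sulforaphane (SFN), an isothiocyanate from cruciferous vegetables, or with its vehicle DMSO. There were 5 SFN and 5 DMSO replicates of 50000 cells each, all from this single line, and by the study's methods their RNA was sequenced from the 3′ ends of transcripts, while the labels name only standard Illumina protocols. The study's methods call replicates independent in general terms, but no source used here says that these were separate cultures, so p-values measure the spread between these libraries, which may be technical. Each library held the RNA of many cells, so fewer cells with a transcript and less of it per cell cannot be told apart.

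A long non-coding RNA is transcribed, and often spliced and polyadenylated, like an mRNA but codes for no known protein. Some act in cis, on a neighbouring gene, through the RNA or through the act of transcription, and others act in trans, by binding proteins, chromatin or other RNAs. Most are made at low levels and turn over quickly, and many are transcribed only in certain tissues or states of stress. SFN modifies cysteines of KEAP1 and thereby stabilizes NRF2, a transcription factor that binds antioxidant response elements.

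Library totals ranged from 15689294 to 20666692 counts in DMSO and from 12375860 to 17308706 in SFN. Of 10 genes that report the response to SFN, 7 were higher with adjusted p under 0.05, among them HMOX1 of the NRF2 pathway (log2 fold change 1.42) and the heat shock gene HSPA1A (3.84). NQO1, TXNRD1 and SRXN1 did not pass. Of 10 listed markers of retinal pigment epithelium, 6 had under 100 counts, RPE65 with 5 among them, and 4 were tested. OTX2 was lower in SFN, at 9.01 CPM (counts scaled to a common library size) against 14.0 in DMSO, as was MITF, at 23.4 against 50.8, whereas BEST1 (42.4 against 18.8) and PMEL (1.11 against 1.0) did not pass. Markers of blood, endothelial and neural cells all had under 100 counts. DMSO replicate 1 stood apart from the other DMSO libraries: it was the highest or the lowest of the 5 for 85.2% of all genes tested and for 66 of the 96 LINC genes, and values without it are given beside results that it changes. Within SFN, replicate 2 was the highest or the lowest for 68.1% of all genes tested and replicate 5 for 62.8%, each for 48 of the 96 LINC genes.

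Few reads lay behind most LINC genes. Their totals over the 10 libraries ran from 100 to 5150, with a median of 307, and 47 genes had under 300 counts, 32 had from 300 to under 1000 and 17 had 1000 or more. Summed over the 96 genes, CPM scaled by the trimmed mean of M-values (TMM) came to 361 to 446 in the DMSO libraries and 375 to 420 in the SFN libraries, so the groups overlapped. The highest sum was that of DMSO replicate 1. A filter on low counts kept 92 of the 96. In each group separately, 80 members reached 50 counts, whereas 4 fell short of that in DMSO and 12 in SFN. Just inside the limit of 100 were LINC01116 with 100 counts and LINC01852 with 101, and just outside it were LINC01311 and LINC02009 with 97 each. Counts per library for these 4 genes ran from 1 to 26, and the groups overlapped in each of them.

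With SFN, 10 of the 92 LINC genes tested were higher and 7 were lower at adjusted p under 0.05 in the quasi-likelihood test of edgeR, adjusted by the Benjamini-Hochberg method over 13378 genes. The 10 higher make 10.9%, beside a background of 9.07% of all genes tested, and the 7 lower make 7.61%, beside 13.9%. Taking differentially expressed genes (DEGs) as those that also changed more than 2-fold, that is by over 1 on the log2 scale, 6 were higher (6.52%, background 2.94%) and 2 were lower (2.17%, background 5.76%). All 5 SFN libraries lay above all 5 DMSO libraries for 10 genes (10.9%, background 8.78%) and below them for 8 (8.70%, background 11.1%). At an unadjusted p under 0.05 there were 15 higher (16.3%, background 14.6%) and 13 lower (14.1%, background 20.0%). The shares of LINC genes called were thus above the background among increases and below it among decreases, but each rested on 15 genes or fewer. These shares were not tested against it, and without DMSO replicate 1 the share among increases was below the background as well (17.2% beside 22.5%).

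**Figure D1:**
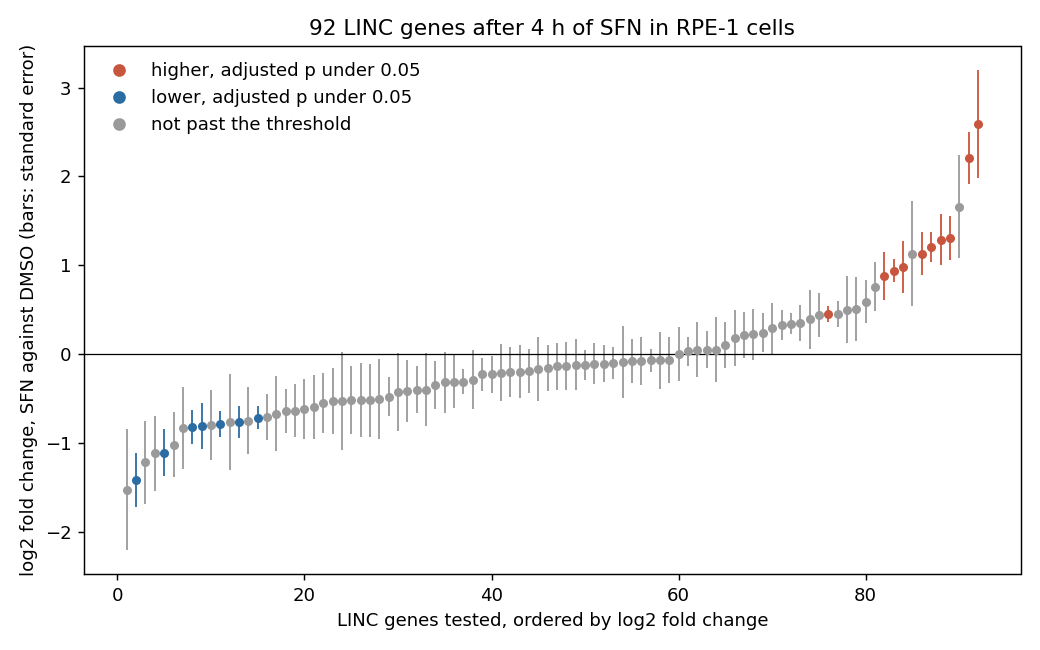
Log2 fold change of each of the 92 LINC genes tested, SFN against DMSO (y axis), in order from the lowest to the highest (x axis), with bars for the standard error. The 10 red points (higher) and 7 blue points (lower) passed an adjusted p of 0.05, and 49 genes lay between -0.5 and 0.5.

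The median log2 fold change of the 92 genes was -0.15, beside -0.028 over all genes tested, with 33 positive values and 59 negative ones. By depth, 8 of 43 genes with under 300 counts passed in either direction (18.6%, background 19.1% of genes from 100 counts up to there), as did 4 of 32 with 300 to under 1000 counts (12.5%, background 28.4%) and 5 of 17 with 1000 or more (29.4%, background 22.5%). Of the 17 genes called, 2 that were higher had under 50 counts in DMSO (LINC00672 and LINC01772) and 1 that was lower had under 50 in SFN (LINC01572). Such genes passed the limit on total counts mainly through the group in which they were high. Among the 78 tested members with 50 or more counts in each group, 8 were higher (10.3%, background 8.52% of genes with as many) and 6 lower (7.69%, background 13.4%).

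**Figure D2:**
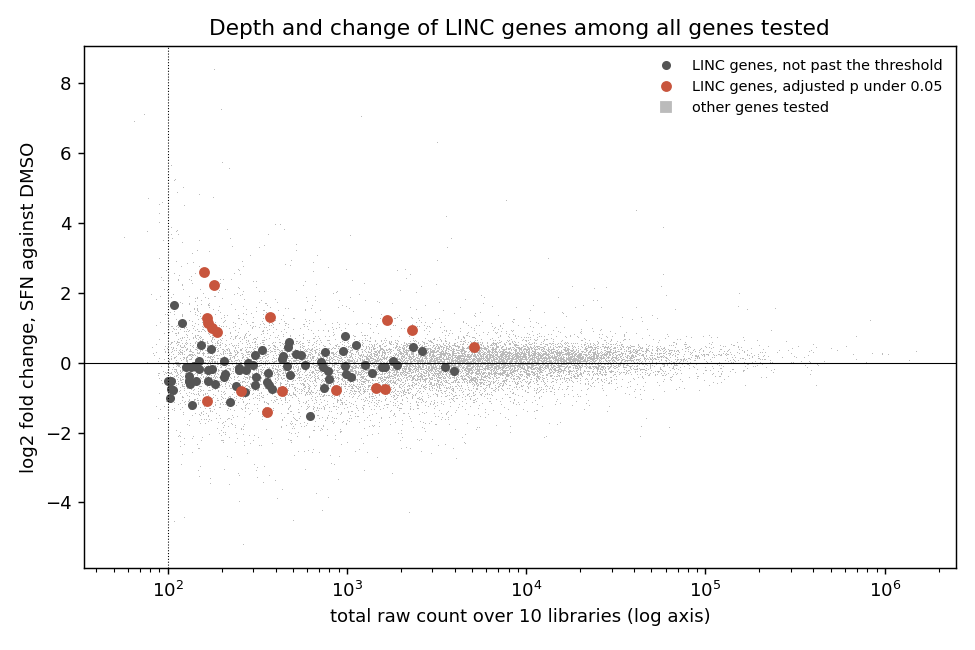
Total raw count over the 10 libraries (x axis, log scale) against the log2 fold change of SFN against DMSO (y axis) for all 13378 genes tested in light grey, with LINC genes as large points and the limit of 100 counts as a dotted line. LINC genes lie at the low end of the depth range, none above 5150 counts, and the largest increases, LINC01772 at 2.59 and LINC00672 at 2.21, are among the sparsely counted ones.

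Both of the largest increases among the genes called were in genes that start within 5 kb downstream of a coding gene. Of the 9 members so placed, the others did not pass with all libraries, with log2 fold changes from -1.02 (LINC00920) to 1.13 (LINC00601). Without DMSO replicate 1, LINC00920 (-1.05, adjusted p = 0.043) and LINC00641 (-0.52, adjusted p = 0.034) passed by edgeR's test. LINC01772 (ENSG00000226029, GRCh38 chr1:16460948-16468481, plus strand) begins 0.87 kb after the end of NECAP2, which encodes an adaptor protein of endocytic vesicles. Its TMM-scaled CPM was 1.12, 0.0911, 0.168, 0.0602 and 0.178 in DMSO replicates 1 to 5 and 1.85, 2.93, 2.16, 1.28 and 1.41 in SFN replicates 1 to 5. There was no overlap, although DMSO replicate 1 lay close to the SFN libraries, with 18 counts against a lowest count of 1 in DMSO. The log2 fold change was 2.59 (SE 0.61, adjusted p = 0.0094 by edgeR), and 3.87 (SE 0.43) without DMSO replicate 1. NECAP2 itself had a log2 fold change of 0.25 (adjusted p = 0.23), and of 0.34 (adjusted p = 0.016) without that library.

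LINC00672 (ENSG00000263874, GRCh38 chr17:38925168-38929384, plus strand) starts 3.40 kb after LASP1, which encodes an actin-binding protein. Its current name is LASP1NB, for LASP1 neighbour, and GENCODE 44 lists it as protein-coding, not as a long non-coding RNA. Its CPM was 0.498, 0.501, 0.224, 0.542 and 0.355 in the DMSO libraries and 2.62, 1.73, 2.09, 2.02 and 1.48 in the SFN libraries. The lowest SFN library was above the highest DMSO library, and the increase was 4.63-fold (log2 2.21, SE 0.29, adjusted p = 0.00019 by edgeR). LASP1 had a log2 fold change of -0.05 (adjusted p = 0.86).

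LINC01561 (ENSG00000177234, chr10:120597949-120600124, plus strand) is a single-exon gene 5.88 kb from PLPP4, a lipid phosphatase gene with a log2 fold change of 0.28 (adjusted p = 0.37), and of 0.47 (adjusted p = 0.012) without DMSO replicate 1. Its CPM was 1.18, 1.55, 1.90, 0.964 and 1.48 in DMSO and 3.04, 5.18, 3.95, 2.63 and 2.97 in SFN. Every SFN library was higher than every DMSO library, and the gene rose 2.48-fold (log2 1.31, SE 0.25, adjusted p = 0.0029 by edgeR).

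LINC00565, now named SWINGN (ENSG00000260910, chr13:113923052-113928991, minus strand), also has a single exon. Its CPM was 0.747, 0.501, 0.727, 0.843 and 0.355 in DMSO and 1.25, 1.29, 1.27, 1.89 and 2.05 in SFN, with 6 to 14 counts per DMSO library and 15 to 29 per SFN library. The groups stood apart and the log2 fold change was 1.29 (SE 0.29, adjusted p = 0.0079 by edgeR).

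LINC02535 (ENSG00000234155, chr6:85387219-85390186, minus strand) lies 59.4 kb from NT5E, the gene of the ecto-enzyme CD73. Its CPM was 0.436, 0.729, 0.783, 0.723 and 0.71 in DMSO and 1.73, 1.73, 1.41, 1.48 and 1.13 in SFN. DMSO replicate 1 was the lowest library, and the groups did not overlap with or without it. The log2 fold change was 1.13 (SE 0.24, adjusted p = 0.0057 by edgeR), and 1.01 without DMSO replicate 1.

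Among the more deeply counted genes, LINC00909, LINC01128 and LINC00667 rose. LINC00909, now named ZNF407-AS1 (ENSG00000264247, chr18:74590317-74598885, minus strand), overlaps the zinc finger gene ZNF407 on the opposite strand. Its CPM was 9.15, 7.11, 5.03, 6.14 and 5.62 in DMSO and 17.1, 16.1, 16.1, 13.6 and 13.6 in SFN. No SFN library fell to the level of the highest DMSO library, and the increase was 2.31-fold (log2 1.21, SE 0.17, adjusted p = 0.0003 by edgeR). ZNF407 had a log2 fold change of -0.64 (adjusted p = 0.061). It read 11.4 CPM in DMSO replicate 1, and without that library its log2 fold change was -0.79 (adjusted p = 0.00069).

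LINC01128 (ENSG00000228794, chr1:825138-859446, plus strand) had a CPM of 9.34, 11.3, 11.3, 9.70 and 9.53 in DMSO and of 20.2, 19.9, 15.5, 19.1 and 23.4 in SFN. All SFN libraries exceeded all DMSO libraries, with a log2 fold change of 0.94 (SE 0.13, adjusted p = 0.0003 by edgeR), just under the limit for a DEG.

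LINC00667 (ENSG00000263753, chr18:5237826-5290608, plus strand) had the most reads of all members, 5150. Its CPM was 28.2, 26.5, 27.2, 27.4 and 29.2 in DMSO and 38.2, 37.7, 36.2, 36.9 and 40.2 in SFN. The increase was small, 1.37-fold, but the replicates were tight and the groups did not overlap (log2 0.45, SE 0.09, adjusted p = 0.0032 by edgeR). ZBTB14, a transcriptional repressor gene that it overlaps on the opposite strand, was lower (log2 fold change -0.86, adjusted p = 0.038). Whether counting used the strand is not given in the sources used here, so reads of overlapping genes on opposite strands cannot be told apart.

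The other increases were LINC02604 (log2 0.98, SE 0.29, adjusted p = 0.028 by edgeR) and LINC00997 (0.88, SE 0.27, adjusted p = 0.036). In both, 1 SFN library lay within the DMSO range. LINC02604 ran from 0.498 to 0.894 CPM in DMSO and from 0.776 to 1.97 in SFN, and LINC00997 from 0.503 to 1.18 and from 1.13 to 1.91. With the replicate number as a block their adjusted p was 0.09 and 0.065 in edgeR's test.

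**Figure D3:**
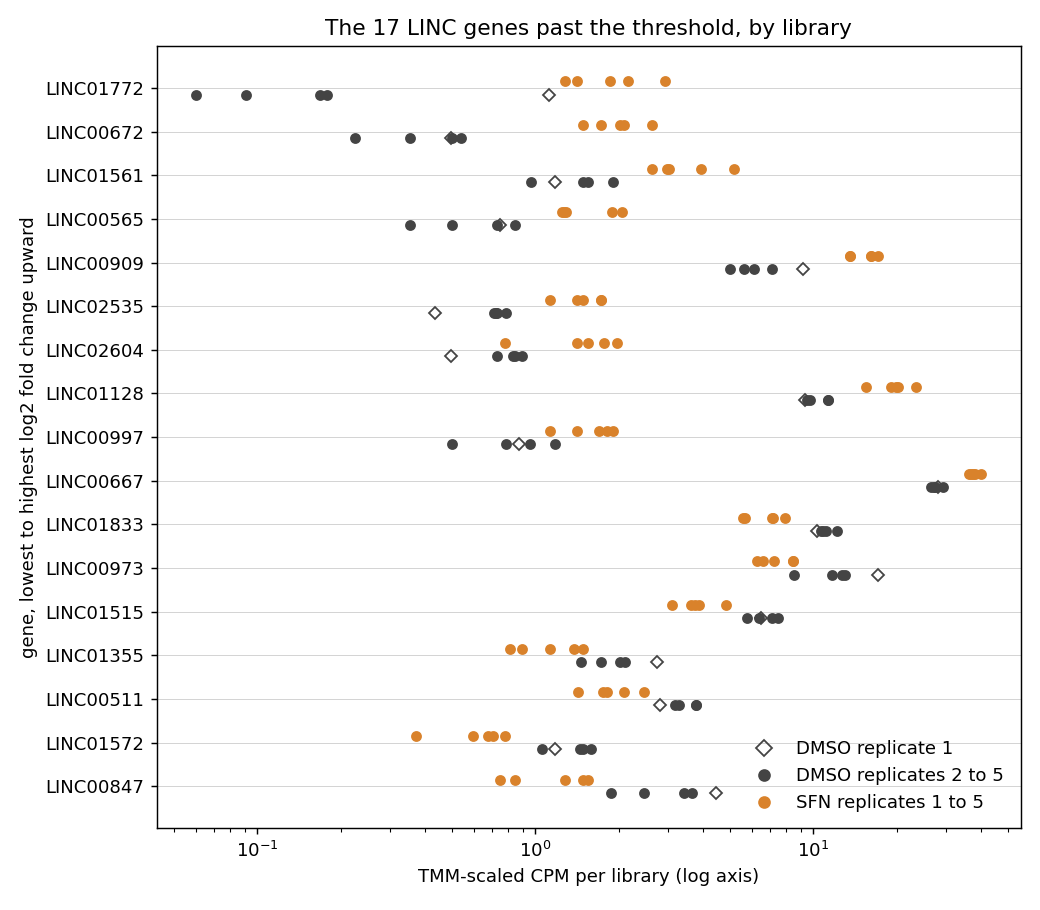
TMM-scaled CPM per library (x axis, log scale) for the 17 LINC genes past the threshold (y axis), with SFN replicates in orange, DMSO replicates 2 to 5 in dark grey and DMSO replicate 1 as an open diamond. The groups do not overlap in 8 of the 10 genes that were higher and in 6 of the 7 that were lower, and DMSO replicate 1 is the odd DMSO library for LINC01772 at 1.12 CPM.

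RefSeq promoter windows, 250 bases before to 50 after a start, were found for 73 of the 96 members, 8 of those higher and 7 of those lower. The antioxidant response element was searched on both strands as TGACNNNGC, where N is any base, and a gene counted if any of its windows held it. It stood in 14 of 73 members (19.2%), in 3 of 8 that were higher and in 0 of 7 that were lower, beside 16.1% of the 27305 genes with a window, counted in the same way, and 13.3% of single windows. The 3 are shown because they are the higher genes with a match to the element NRF2 binds, and LINC00672 because it rose most among the members with a window. Capitals mark matches, for LINC02535 also to the AP-1 site TGANTCA, which overlaps the element at its first match, and to the ATF4 composite element TGATGNAA, read on the opposite strand.
LINC00565: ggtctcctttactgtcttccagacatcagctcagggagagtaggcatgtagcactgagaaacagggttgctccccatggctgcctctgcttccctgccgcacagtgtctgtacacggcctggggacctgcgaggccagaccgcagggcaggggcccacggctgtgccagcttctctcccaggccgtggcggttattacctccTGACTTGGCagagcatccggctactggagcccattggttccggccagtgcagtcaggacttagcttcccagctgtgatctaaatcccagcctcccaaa
LINC02535: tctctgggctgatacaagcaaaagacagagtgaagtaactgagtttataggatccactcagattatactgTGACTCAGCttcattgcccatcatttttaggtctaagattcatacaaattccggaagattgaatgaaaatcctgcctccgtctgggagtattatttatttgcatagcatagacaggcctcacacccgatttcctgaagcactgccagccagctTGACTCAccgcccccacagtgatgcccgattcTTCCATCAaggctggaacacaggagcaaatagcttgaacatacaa
LINC02604: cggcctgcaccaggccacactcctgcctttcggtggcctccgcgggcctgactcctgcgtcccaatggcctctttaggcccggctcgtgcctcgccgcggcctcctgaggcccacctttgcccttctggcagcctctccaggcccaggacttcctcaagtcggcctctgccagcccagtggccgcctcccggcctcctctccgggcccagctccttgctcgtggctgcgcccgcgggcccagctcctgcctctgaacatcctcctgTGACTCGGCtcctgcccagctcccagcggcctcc
LINC00672: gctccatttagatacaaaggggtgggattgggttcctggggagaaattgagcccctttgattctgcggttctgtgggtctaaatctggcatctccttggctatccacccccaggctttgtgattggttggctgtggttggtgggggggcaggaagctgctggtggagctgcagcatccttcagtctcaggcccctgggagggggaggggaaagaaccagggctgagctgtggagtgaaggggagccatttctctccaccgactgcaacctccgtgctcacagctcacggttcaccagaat

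These windows are from RefSeq on GRCh38.p14, at chr13:113928942-113929241 (minus strand), chr6:85404753-85405052 (minus strand), chr7:66903870-66904169 (plus strand) and chr17:38925364-38925663 (plus strand). The element begins 48 bases before the start in LINC00565 and 180 bases before it in LINC02535, and lies after the start in LINC02604. RefSeq and GENCODE place the start differently for LINC02535, by 14.6 kb, for LINC02604, by 1.26 kb, and for LINC00672, by 0.446 kb. They also differ for LINC00973, by 66.5 kb, and for LINC00997, by 1.99 kb, both named below for other motifs. Which start RPE-1 cells use was not measured. For the other motifs, the heat shock element core GAANNTTC stood in 1 of the 8 higher genes (LINC00997) and in 8.21% of all genes. The AP-1 site was in 1 higher and 1 lower gene (LINC00973) and in 9.37% of all genes, and the ATF4 element in 1 higher gene and in 4.46%. The cAMP response element TGACGTCA, the E-box CACGTG and the EGR site GCGTGGGCG were in 0 genes called and in 2.25%, 8.77% and 0.96% of all genes. A match of letters describes the sequence, and no binding was measured here.

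Among the genes called, the largest decrease was that of LINC00847 (ENSG00000245060, chr5:180830326-180839742, plus strand). Its CPM was 4.48, 1.87, 2.46, 3.43 and 3.67 in DMSO and 1.49, 1.55, 0.745, 1.28 and 0.847 in SFN. All SFN libraries were lower than all DMSO libraries, and the gene was 2.67-fold lower (log2 -1.42, SE 0.30, adjusted p = 0.005 by edgeR). Its neighbour at 7.87 kb, the zinc finger gene ZFP62, was lower as well (log2 -0.66, adjusted p = 0.015).

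LINC01572 (ENSG00000261008, chr16:72236281-72665014, minus strand) spans 429 kb. Its CPM was 1.18, 1.59, 1.06, 1.45 and 1.48 in DMSO and 0.596, 0.776, 0.372, 0.675 and 0.706 in SFN, resting on 5 to 10 counts per SFN library. The groups did not overlap, and the log2 fold change was -1.11 (SE 0.26, adjusted p = 0.009 by edgeR). LINC00847 and LINC01572 were the 2 DEGs among the decreases.

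LINC00511 (ENSG00000227036, chr17:72290091-72640472, minus strand), a long non-coding RNA much studied in tumours, had a CPM of 2.80, 3.28, 3.80, 3.19 and 3.79 in DMSO. In SFN it was 1.43, 1.81, 2.09, 1.75 and 2.47, below every DMSO library. The gene was 1.77-fold lower (log2 -0.82, SE 0.19, adjusted p = 0.0095 by edgeR).

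LINC01833 (ENSG00000259439, chr2:44921077-44939199, minus strand) lies 2.50 kb from SIX3, a homeobox gene of eye and forebrain development. Its CPM was 10.3, 10.8, 12.2, 10.7 and 11.1 in DMSO and 5.60, 7.94, 5.66, 7.15 and 7.13 in SFN, with no overlap between the groups. The log2 fold change was -0.72 (SE 0.13, adjusted p = 0.0021 by edgeR). SIX3 was lower too, at 24.5 ± 10.6 CPM (SD, n = 5) in DMSO and 6.74 ± 0.979 in SFN (log2 -1.86, SE 0.24, adjusted p = 0.00021 by edgeR). Without DMSO replicate 1, in which SIX3 reached 43.3 CPM, its log2 fold change was -1.56.

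LINC00973 (ENSG00000240476, chr3:98981058-98983096, plus strand) had a CPM of 17.1, 11.7, 8.50, 13.0 and 12.7 in DMSO and of 6.62, 8.45, 7.22, 8.43 and 6.28 in SFN. The highest SFN library, at 8.45, lay just under the lowest DMSO library, at 8.50. Its log2 fold change was -0.77 (SE 0.18, adjusted p = 0.0096 by edgeR).

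LINC01515 (log2 -0.79, SE 0.15, adjusted p = 0.0031 by edgeR), a gene of 310 kb, ran from 5.76 to 7.47 CPM in DMSO and from 3.10 to 4.87 in SFN. LINC01355 (log2 -0.81, SE 0.26, adjusted p = 0.040) ran from 1.46 to 2.74 and from 0.810 to 1.48, so its groups overlapped. With the replicate block its adjusted p was 0.093 in edgeR's test.

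Beside LINC00667 and LINC01128, the members with the most reads did not pass the test. LINC01184, now named SLC12A2-DT, had a CPM of 43.8 in DMSO replicate 1 and of 21.2 to 24.4 in the other DMSO libraries, and of 18.4 to 29.5 in SFN (log2 -0.23, SE 0.21, adjusted p = 0.49 by edgeR). LINC01578 is CHASERR, an RNA that restrains the adjacent chromatin remodeller gene CHD2, which it overlaps on the same strand. It had a CPM of 12.5 to 41.6 in DMSO and 17.7 to 25.4 in SFN (log2 -0.13, SE 0.27, adjusted p = 0.79). Reads from stretches that both genes share cannot be told apart. CHD2 rose from 103 ± 21.0 to 159 ± 17.4 CPM (SD, n = 5, log2 0.63, adjusted p = 0.0072 by edgeR).

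LINC00941 and LINC01963 came close to the threshold, and in both the groups did not overlap. LINC00941 ran from 12.2 to 15.7 CPM in DMSO and from 16.8 to 21.5 in SFN (log2 0.34, SE 0.12, adjusted p = 0.062 by edgeR). Its identifier, ENSG00000285517, has no gene name in GENCODE 44, so its identity is uncertain. LINC01963 ran from 8.10 to 14.9 and from 16.5 to 18.4 CPM (log2 0.45, SE 0.15, adjusted p = 0.051). Both passed without DMSO replicate 1 (adjusted p = 0.022 and 0.014 by edgeR), with DESeq2 (0.025 and 0.015) and with limma-voom (0.03 and 0.017). Of the 4 genes with no overlap that did not pass, the others were LINC01006 (log2 -1.12, adjusted p = 0.078) and LINC00920 (-1.02, adjusted p = 0.071), named here after their values were seen. LINC01006 passed with DESeq2. LINC00920 passed with limma-voom and, by edgeR's test, without DMSO replicate 1 (log2 -1.05, adjusted p = 0.043).

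Further members known from studies of tumours or proliferation were LINC00467 (log2 0.51, SE 0.36), LINC00662 (0.76, SE 0.28), LINC00324 (0.50, SE 0.38), LINC00963 (0.05, SE 0.21), LINC00520 (-0.40, SE 0.41), LINC00857 (-0.43, SE 0.44) and LINC01116 (-0.53, SE 0.55). None passed by edgeR's test, with adjusted p from 0.071 for LINC00662 to 0.89 for LINC00963, and in each of them the groups overlapped. LINC00662 passed in 4 of 17 alternatives, with adjusted p = 0.0024 without DMSO replicate 1 (log2 0.99), 0.034 with DESeq2, 0.022 with limma-voom and 0.039 without SFN replicate 5. Of the members named here, LINC01116 and LINC00520 had 100 and 132 counts in all, and their standard errors were about as large as their fold changes. Without DMSO replicate 1 their log2 fold changes were -0.08 and -0.09, while that of LINC00857 was -0.68.

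The number of LINC genes that passed depended on DMSO replicate 1. Without it, 16 of 93 were higher (17.2%) and 14 lower (15.1%) by edgeR's test, including the 17 called with all libraries, while 22.5% and 23.5% of all genes were called in those directions. LINC00467 read 13.4, 4.47, 4.64, 4.88 and 2.60 CPM in DMSO and 8.82, 6.90, 10.9, 7.89 and 7.98 in SFN. DMSO replicate 1 lay above every SFN library and the other 4 DMSO libraries below them all, and without replicate 1 the log2 fold change was 1.03 (SE 0.19, adjusted p = 0.00066 by edgeR). LINC02104, named after its values were seen, read 19.6, 2.19, 2.07, 2.71 and 2.07 CPM in DMSO and 2.80, 2.16, 2.16, 1.75 and 0.918 in SFN. Its log2 fold change of -1.53 (SE 0.68, adjusted p = 0.13), the lowest of the 92, became -0.20 without that library.

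In GENCODE 44 all 96 identifiers had a record, 89 as long non-coding RNAs, 5 as transcribed pseudogenes and 2 as protein-coding genes. For 16 members that release gave another name or none, and 7 of those names end in DT or in AS and a number, for a divergent or an antisense transcript. The canonical transcript ran from 160 to 6616 bases, with a median of 1871 and a median of 3 exons, and 13 members had a single exon. A polyadenylation hexamer, AATAAA or ATTAAA, stood in the last 50 bases of the transcript in 42 members (43.8%), beside 76.2% of the genes tested, and in 11 of the 17 called. Among those called, LINC00909 was the only higher gene without it, and LINC01572 and LINC01355 the only lower genes with it. With reads from 3′ ends, as the methods describe, counts depend on how well that end is annotated, and its part in the counts was not tested.

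The word intergenic held for only some of these genes. No other gene of the annotation overlapped 36 of the 96, whereas 35 overlapped a gene on the same strand and 54 a gene on the opposite strand, some both. Against protein-coding genes, 66 lay apart from the nearest, 13 overlapped it on the opposite strand, 8 overlapped it on the same strand and 9 began within 5 kb downstream of it on its strand. The median distance was 27.1 kb over the 75 that did not overlap it. In 13 members a coding gene on the other strand started within 2 kb.

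For 73 LINC genes the nearest coding gene was tested as well, and the log2 fold changes had the same sign in 42 pairs. Across the 73 pairs the Spearman correlation was 0.14 and the Pearson correlation 0.18, a description over genes measured in the same libraries. Of these neighbours 4 were higher (5.48%, background 9.07% of all genes tested) and 14 lower (19.2%, background 13.9%). Near the 10 LINC genes that were higher, 1 neighbour was higher, 1 lower and 8 did not pass. Without DMSO replicate 1 the same 10 neighbours gave 4 higher, 2 lower and 4 that did not pass. More of all genes passed without that library as well, 22.5% higher and 23.5% lower. KBTBD2, which encodes an adaptor of a ubiquitin ligase, was the higher one (log2 0.98, SE 0.12, adjusted p = 0.00014 by edgeR), 105 kb from LINC00997, and ZBTB14 the lower one. Near the 5 that were lower and had a tested neighbour, SIX3 and ZFP62 were lower and 3 did not pass, and without that library 3 were lower and 2 did not pass. Pairs also differed in sign where the LINC gene did not pass with all libraries. TRAF5, 7.79 kb from LINC00467 (log2 0.51, adjusted p = 0.36 by edgeR), had a log2 fold change of -0.97 (adjusted p = 0.0054). CAPRIN2, which overlaps LINC00941 (log2 0.34, adjusted p = 0.062), had one of -0.80 (adjusted p = 0.049).

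Other groups of non-coding genes with 100 or more counts are set beside the LINC genes as counts, with no test between them. Of 219 tested antisense genes 16 were higher (7.31%) and 33 lower (15.1%), with a median log2 fold change of -0.13. Among 24 divergent transcripts 2 were higher and 3 lower (median -0.36), among 20 microRNA host genes 1 and 8 (median -0.54), and among 17 small nucleolar RNA host genes 0 and 5 (median -0.39). The LINC genes had 10.9% higher and 7.61% lower, with a median of -0.15. The background for all these lists was 9.07% of all genes tested higher and 13.9% lower, with a median of -0.028. Of 20 regulator long non-coding RNAs with names of their own, 17 were tested, and 1 was higher and 3 lower by edgeR's test. MIR22HG rose (log2 1.59, adjusted p = 0.00017), and NEAT1, the scaffold of paraspeckles, fell by 1.85 (adjusted p = 5.7e-05).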

How the data were processed

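RNA from 5 DMSO and 5 SFN replicates was sequenced by the authors with Lexogen QuantSeq, which reads 3′ ends, and aligned in the Bluebee pipeline. How counting was done is not described further, and the labels name FastQC, STAR, featureCounts, edgeR and hg38 (GRCh38). Use of strand, the Ensembl release and versions are not given in the sources used here. The table deposited by the authors holds raw, unnormalized counts, with a row for each Ensembl gene.

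Members, lists and tests were chosen with earlier results of these data known. Genes were filtered with filterByExpr and scaled by TMM, and all 13378 genes kept were tested with glmQLFit and glmQLFTest of edgeR 4.0.16 in R 4.3.3, with Benjamini-Hochberg adjustment. Standard errors were taken as the size of the log2 fold change over the root of its F statistic. Alternatives used limma 3.58.1 (voom on quantile normalized values, the nearest to the authors' model for repeated measures, which was not run), DESeq2 1.42.0, other scalings and filters, glmTreat, a replicate block and leaving out each replicate. The tests were checked on simulated data. Genes were named as the 10 largest increases and 10 largest decreases among those called, the 6 with most reads, a list of known names, the 2 nearest on each side of 100 counts, and neighbours. Positions and motif matches used GENCODE 44 and RefSeq. Chi-square per degree of freedom between replicates was 3.50 to 243, so no pair agreed within sampling noise. Counts per library limit precision, and standard errors include counting error.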

Additional observations from a re-analysis of the deposited data

Results flagged for a closer look

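Among 58 sets of 5 libraries, a set being a named gene in 1 treatment, 7 had a library whose gap to the nearest other, divided by the range of the 5, exceeded Dixon's critical value of 0.71. About 3 such sets would come by chance, at about 1 in 20. In all 7 the library was DMSO replicate 1. LINC02104 was named after its values were seen, and without it there were 6 of 56. It was high for LINC02104 (ratio 0.96), LINC01772 (0.89), LINC01184 (0.86), LINC00467 (0.79), LINC01116 (0.72) and LINC00963 (0.71), and low for LINC02535 (0.79). No SFN library stood apart in this way among the named genes.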

How the results depend on the processing

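With glmTreat set aside, 13 of the 17 LINC genes called stayed past the threshold in each of 17 alternatives and 0 changed direction. The exceptions were LINC01355, past it in 8 of 17, LINC00997 in 7 of 17, LINC02604 in 6 of 16 and LINC00973 in 16 of 17, whose adjusted p was 0.053 with limma-voom. Leaving out 1 replicate gave 8 to 16 higher, 6 to 14 lower and 1 to 4 DEGs lower. The highest counts came without DMSO replicate 1 and the lowest count of DEGs without SFN replicate 3. In the same fits 6.66% to 22.5% of all genes were called higher and 10.8% to 23.5% lower, also most without DMSO replicate 1. DESeq2 called 14 LINC genes higher and 10 lower, with 12.2% and 15.9% of all genes called, and gave 4 DEGs lower. With glmTreat, which tests against the 2-fold limit itself, 1 of 92 was higher (LINC00672) and 0 were lower. It called 1.14% of all genes higher and 1.53% lower. The other 16 genes called did not pass with glmTreat. The median log2 fold change of the LINC genes was -0.11 with a filter at 1 CPM in 5 libraries, -0.23 with library size as the only scaling (all genes -0.111), -0.03 with limma-voom on quantile values (all genes 0.039), and -0.22 to -0.11 when 1 replicate was left out. The cause was not tested. Scaling by library size called 819 of all genes higher and 2163 lower, beside 1214 and 1862 with TMM, and limma-voom called 15 LINC genes higher and 6 lower, with 9.84% and 11.5% of all genes called.

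Values near 0 changed sign. LINC01184 ran from -0.33 to 0.0032 when 1 replicate was left out, the latter without DMSO replicate 1, LINC01578 was 0.048 with limma-voom and -0.29 to 0.19 when 1 replicate was left out, and LINC00963 was -0.0066 with library size only and -0.045 to 0.27 when 1 was left out. Without DMSO replicate 2 and SFN replicate 2, LINC00963 was -0.0022 and -0.0088.

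No pairing of the libraries by replicate number was evident. Same-numbered libraries' deviations from their group means correlated at 0.0496, -0.327, -0.0763, 0.0448 and 0.555, and 1 DMSO library correlated best with its own number. So few values cannot exclude a pairing, and the study's methods mention repeated measures without defining them. With the replicate block 8 LINC genes were higher and 6 lower (all genes 6.81% and 11.4%), without LINC00997, LINC01355 and LINC02604.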
